A study of Rattus norvegicus with 6 samples.

Results

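The genes described here are the core of transforming growth factor beta (TGF beta) signalling: the ligand genes Tgfb1, Tgfb2 and Tgfb3, the latent ligand binding protein gene Ltbp1, the receptor genes Tgfbr1 and Tgfbr2, and the signal transducer genes Smad2, Smad3, Smad4 and Smad7. They were chosen by symbol, 10 genes of the 22601 in the deposited table, and each had 1 row. Expression was measured by RNA-seq in RBL-2H3, a wild-type rat basophilic leukemia line that stands in for mast cells in much laboratory work. There were 3 control libraries, kept without PIO, and 3 from cells exposed for 6 h to 10 µM PIO, which the series treats as an agonist of the nuclear receptor PPARγ. The labels give neither vehicle nor time for the controls, and any effect of these cannot be told apart from that of PIO. Nothing states that replicates were separate cultures, and p-values then reflect library-to-library spread alone, possibly technical. All 6 libraries come from the same line, so values for it need not hold for primary mast cells.

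TGF beta is secreted as an inactive complex in which the mature ligand is held by its own propeptide, and latent TGF beta binding proteins tie that complex to the matrix. Once released, the ligand binds the type II receptor (Tgfbr2), which activates the type I receptor (Tgfbr1), and the type I receptor phosphorylates Smad2 and Smad3. These join Smad4, enter the nucleus and regulate genes, among them Smad7, whose product inhibits the type I receptor. In mast cells TGF beta is known to act on growth, migration, IgE receptor expression and the choice of granule proteases.

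The cells used 1 ligand gene, both receptor genes and 1 of the paired Smads. Tgfb1 averaged 205.7 FPKM over the 6 libraries, with at most 3 reads per library for Tgfb2 and at most 2 for Tgfb3. Tgfbr1 and Tgfbr2 were about equal, at 16.8 and 16.2 FPKM. Smad2 and Smad4 were well expressed, whereas Smad3 had 0 to 3 reads per library. With PIO no member passed the test across all genes. Of the members abundant enough to test, Tgfb1 and Tgfbr1 differed most, by 9.71% and -11.0% in the means. In each the groups did not overlap, which was also so for 18.5% of all genes tested. Ltbp1, too low to test, was likewise without overlap, at -13.8% from 19 to 25 reads per library.

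FPKM are read counts scaled to gene length and library size, so levels can be compared between genes. The reads behind each FPKM value were recovered, and the library totals were 14048202 to 15084729 reads. Testing used limma on log2(FPKM + 0.5) for genes averaging 0.5 FPKM or more, and a call is a Benjamini-Hochberg adjusted p under 0.05. Of 10410 genes tested, 4 were called (0.0384%). Of the labelled cell type, 9 of 11 mast cell and basophil markers stood at 10 FPKM or more, among them Ms4a2, Kit and Hdc, while the tryptase gene Tpsab1 was listed at 0 and Tpsb2 lay under 1 FPKM. Macrophage markers summed to 1.69 to 2.09 FPKM over the 6 libraries, most of it Cd68 (1.36 to 1.69 FPKM), with Marco, C1qa and C1qb at 0. Fibroblast markers summed to 5.12 to 5.62 FPKM in control and 4.74 to 5.03 FPKM with PIO, with Dcn at 0. Nearly all of that sum was 1 gene, Col3a1, at 4.93 to 5.44 FPKM in control and 4.57 to 4.85 FPKM with PIO. T cell markers summed to 2.04 to 2.48 and 1.5 to 1.93 FPKM, with Cd3d at 0 and 5 of 6 in the table. Of 6 megakaryocyte markers 4 reached 1 FPKM, and Pf4 and Ppbp made up most of a sum of 2680 to 2850 FPKM in control and 2850 to 3010 FPKM with PIO. The part of these shifts in the results below was not tested.

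The sequences just before the start sites of the ligand and receptor genes are shown because the ligands differ so widely in level and the receptors so little. Each is the 250 bases before the RefSeq start on the rat assembly GRCr8, printed 5′ to 3′ on the strand of the gene, with CpG dinucleotides in capitals. The build behind the FPKM values is unclear and may differ from it.
Tgfb1 (chr1:90324062-90324311, plus strand): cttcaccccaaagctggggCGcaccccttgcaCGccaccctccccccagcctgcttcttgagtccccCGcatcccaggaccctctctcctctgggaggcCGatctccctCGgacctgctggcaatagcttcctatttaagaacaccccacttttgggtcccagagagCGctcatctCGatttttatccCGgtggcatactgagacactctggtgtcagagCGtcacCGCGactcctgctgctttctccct
Tgfb2 (chr13:100792686-100792935, minus strand): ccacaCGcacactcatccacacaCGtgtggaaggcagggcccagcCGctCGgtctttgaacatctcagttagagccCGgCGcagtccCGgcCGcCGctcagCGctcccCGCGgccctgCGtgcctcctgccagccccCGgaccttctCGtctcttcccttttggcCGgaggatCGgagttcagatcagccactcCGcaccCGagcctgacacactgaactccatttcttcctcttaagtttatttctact
Tgfb3 (chr6:111456947-111457196, minus strand): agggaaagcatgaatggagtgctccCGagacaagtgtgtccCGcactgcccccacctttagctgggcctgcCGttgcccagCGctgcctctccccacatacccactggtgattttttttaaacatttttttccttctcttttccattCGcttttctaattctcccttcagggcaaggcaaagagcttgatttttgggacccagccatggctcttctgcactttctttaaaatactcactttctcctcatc
Tgfbr1 (chr5:66449148-66449397, plus strand): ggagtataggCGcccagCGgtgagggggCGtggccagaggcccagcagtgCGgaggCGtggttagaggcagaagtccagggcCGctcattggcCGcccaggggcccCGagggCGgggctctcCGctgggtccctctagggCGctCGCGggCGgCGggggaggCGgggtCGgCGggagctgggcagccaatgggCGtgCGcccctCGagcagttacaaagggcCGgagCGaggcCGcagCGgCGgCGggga
Tgfbr2 (chr8:124761470-124761719, minus strand): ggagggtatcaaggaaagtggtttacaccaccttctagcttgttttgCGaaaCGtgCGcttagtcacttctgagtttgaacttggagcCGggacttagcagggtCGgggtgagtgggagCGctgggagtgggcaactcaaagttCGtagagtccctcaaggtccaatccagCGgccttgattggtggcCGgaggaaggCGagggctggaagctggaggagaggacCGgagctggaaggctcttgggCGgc
The windows held 11 CpG dinucleotides for Tgfb1, 19 for Tgfb2 and 5 for Tgfb3, against a median of 5 over 33469 RefSeq promoter windows of the same length. The order of CpG counts therefore did not follow the order of the levels. The Tgfbr1 window held 27 CpG and the Tgfbr2 window 12. Motifs were searched on both strands, with overlapping matches counted. The GC box GGGCGG, present in 30.5% of all windows, occurred 3 times for Tgfbr1, 1 time for Tgfbr2 and in none of the ligand windows. The CCAAT box, present in 34.0% of windows, occurred 2 times in each receptor window and in none of the ligand windows. None of the 5 windows held the TATA box TATAAA (12.9% of windows), the AP-1 site TGANTCA (6.34%), the cyclic AMP element TGACGTCA (1.59%), the Smad palindrome GTCTAGAC (0.173%) or the DR1 repeat to which PPAR binds (0.0508%). These are matches of letters only.

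Tgfb1 (GeneID 59086) encodes TGF beta 1, the isoform best known from blood and immune cells. Its level was 199.8, 190.1 and 198.5 FPKM in replicates 1 to 3 of control and 209.5, 216.5 and 219.5 FPKM in replicates 1 to 3 of PIO. It ranked 358 by mean level among 15429 genes above 0 in at least 1 library. Every PIO value was above every control value, and the means were 196.1 ± 5.30 and 215.2 ± 5.10 FPKM (SD, n = 3 per group). Among all genes tested 10.5% had PIO values all above control, so lack of overlap alone does not set Tgfb1 apart. The log2 fold change was 0.13 (SE 0.03, 95% interval 0.05 to 0.21, unadjusted p = 0.00488, limma), and it did not pass over all genes (adjusted p = 0.302, limma with Benjamini-Hochberg adjustment). Between 3906 and 4518 reads lay behind each value, a counting error of 1.52%, and the control libraries varied by 2.70%.

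Tgfb2 (GeneID 81809) encodes the isoform best known from development, the heart and the eye. It had 2, 1 and 1 reads in replicates 1 to 3 of control and 2, 2 and 3 reads in replicates 1 to 3 of PIO, which is 0.0123 to 0.0386 FPKM. Tgfb3 (GeneID 25717), the isoform needed for palate fusion, had 1 read in each control library and 0, 2 and 0 reads with PIO. All these values lie at or under the floor of 3 reads that a count of 0 allows, so no difference between the groups was detectable at this depth for either gene. In this table a gene at 0 may also be one to which reads were not assigned. Floors and counting intervals cover counting error only, since reads without molecular identifiers are not independent molecules.

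Tgfb1 made up 99.98% of the summed FPKM of the 3 ligand genes in both groups (99.9811% ± 0.00288 in control and 99.9796% ± 0.00975 with PIO, SD, n = 3 per group). An exact permutation test over libraries, two-sided, gave p = 0.9 for the difference (adjusted p = 1.0 over 4 ratios). Pooling the control reads, Tgfb1 was 11900 times Tgfb2 per length, with an exact 95% counting interval of 4640 to 43600. Against Tgfb3 it was 9500 times, with an interval of 3250 to 46100. With PIO the same ratios were 7190 (3490 to 17900) and 15100 (4180 to 125000), and the intervals of the groups overlap for both pairs. The width of these intervals comes from the 2 to 7 reads in the rarer gene.

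**Figure D1:**
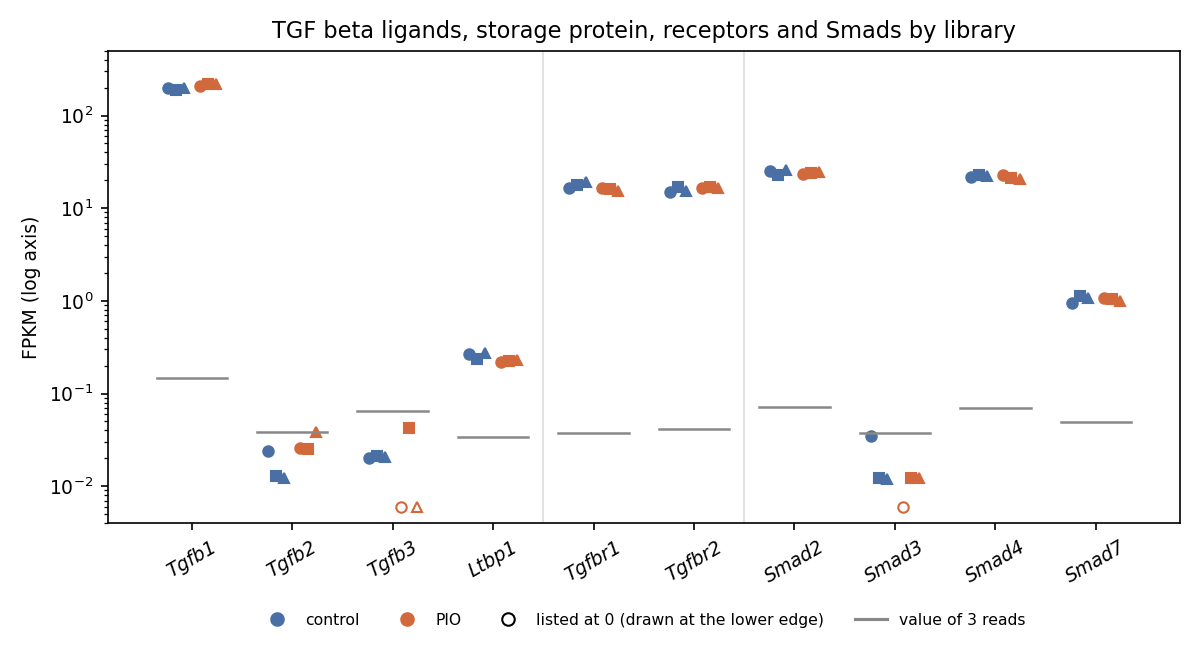
FPKM (log axis) of the 10 genes in the 6 libraries, with control in blue, PIO in orange, replicates 1 to 3 as circles, squares and triangles, and the value of 3 reads as a grey bar. Tgfb1 lies between 190.1 and 219.5 FPKM, Tgfbr1, Tgfbr2, Smad2 and Smad4 between 15 and 26 FPKM, and no value of Tgfb2, Tgfb3 or Smad3 lies above 3 reads.

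Ltbp1 (GeneID 59107) encodes the latent TGF beta binding protein that anchors the inactive ligand. It stood at 0.266, 0.239 and 0.271 FPKM in replicates 1 to 3 of control and 0.217, 0.224 and 0.228 FPKM in replicates 1 to 3 of PIO. All PIO values were below all control values, by a difference of -13.8% in the means, from 19 to 25 reads per library. A counting error of 21.5% per library is larger than that difference. The mean was under the minimum of 0.5 FPKM, so Ltbp1 was not in the main test, and without the filter its log2 fold change was -0.07 (limma adjusted p = 0.604).

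The other carriers of latent ligand were examined after their values had been seen. Ltbp4 was the highest of the binding protein genes, with means of 4.03 ± 0.0866 FPKM for control and 4.30 ± 0.496 FPKM for PIO (SD, n = 3). Ltbp3 stood at 0.717 ± 0.104 and 0.861 ± 0.125 FPKM, and Ltbp2 had at most 3 reads in any library. Nrros encodes a membrane protein that holds latent TGF beta 1 on myeloid cells and microglia. Control libraries averaged 49.6 ± 2.43 FPKM and PIO libraries 48.6 ± 2.50 FPKM (SD, n = 3), a log2 difference of -0.03 (limma adjusted p = 0.832), and its groups overlapped. Lrrc32, which has the same role on regulatory T cells and platelets, had 1 read in 1 PIO library and 0 in the other 5. Of the membrane and matrix carriers, Nrros thus had the highest level per length in this line.

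Tgfbr1 (GeneID 29591) encodes the type I receptor kinase ALK5. Its level was 16.4, 17.7 and 19.3 FPKM in replicates 1 to 3 of control and 16.3, 16.04 and 15.2 FPKM in replicates 1 to 3 of PIO. The groups did not overlap, but control replicate 1 and PIO replicate 1 differed by little, and control replicate 3 was the highest. Among all genes tested 8.09% had PIO values all below control. The means were 17.8 ± 1.45 and 15.8 ± 0.610 FPKM (SD, n = 3 per group). The log2 fold change was -0.16 (SE 0.07, 95% interval -0.31 to -0.01, unadjusted p = 0.0393, limma) and did not pass (adjusted p = 0.382). Without control replicate 3 it was -0.10 (limma adjusted p = 0.524).

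Tgfbr2 (GeneID 81810) encodes the type II receptor, which binds the ligand first. It stood at 15.0, 16.9 and 15.2 FPKM in replicates 1 to 3 of control and 16.4, 17.1 and 16.4 FPKM in replicates 1 to 3 of PIO. Control replicate 2 lay within the PIO values, so the groups overlapped. The means were 15.7 ± 1.02 and 16.6 ± 0.368 FPKM (SD, n = 3), and the log2 fold change was 0.08 (95% interval -0.05 to 0.21, limma adjusted p = 0.562). Without control replicate 1 it was 0.051 and without control replicate 2 it was 0.13. Neither receptor passed, and the level of Tgfbr1 exceeded that of Tgfbr2 in 3 of the 6 libraries.

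Those 3 libraries were the controls. The ratio of Tgfbr1 to Tgfbr2 within a library was 1.09, 1.05 and 1.27 in replicates 1 to 3 of control and 0.993, 0.94 and 0.923 in PIO replicates 1 to 3. A ratio within a library does not depend on how libraries are scaled against each other. Which receptor is the higher does depend on the recovered gene lengths, 5729 bases for Tgfbr1 and 5176 for Tgfbr2. In reads, not per length, Tgfbr1 was above Tgfbr2 in every library. On the log2 scale the means of the FPKM ratio were 0.18 ± 0.14 and -0.07 ± 0.06 (SD, n = 3). The difference between the groups was -0.25, with or without the lengths. An exact two-sided permutation test gave p = 0.1, the smallest that 3 against 3 libraries allow, and adjusted over the 4 ratios tested it was 0.4. Over pooled reads the ratio per length was 1.13 in control (exact 95% counting interval 1.08 to 1.19) and 0.952 with PIO (0.91 to 0.996). These intervals do not overlap, but they treat reads as independent and leave out the spread between libraries.

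**Figure D2:**
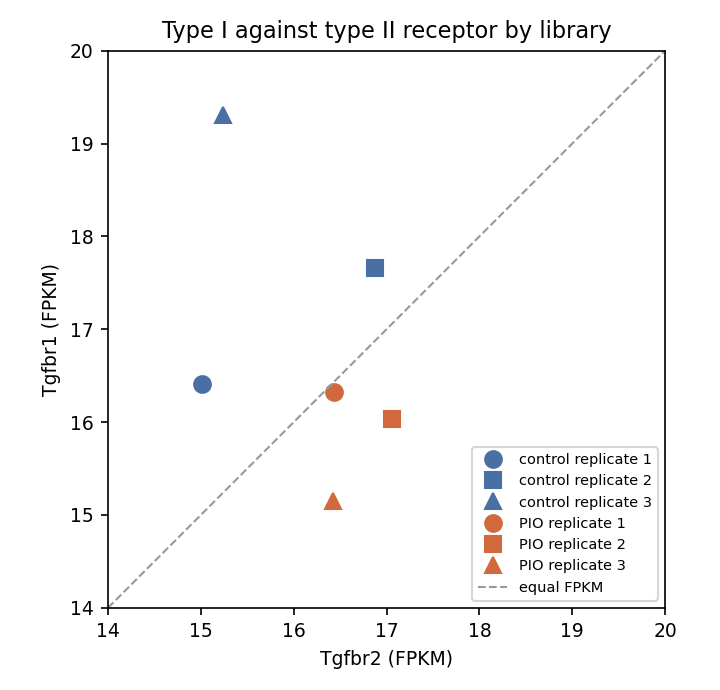
Tgfbr1 against Tgfbr2 in FPKM, 1 point per library, control in blue and PIO in orange, with a dashed line where both are equal and axes from 14 to 20 FPKM. The 3 control libraries lie above the line, at ratios of 1.05 to 1.27, and the 3 PIO libraries below it, at 0.923 to 0.993.

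Smad2 (GeneID 29357) and Smad3 (GeneID 25631) encode the receptor-regulated Smads of the TGF beta branch. Smad2 stood at 24.99, 22.9 and 25.9 FPKM in replicates 1 to 3 of control and 23.5, 23.7 and 24.3 FPKM in replicates 1 to 3 of PIO. The PIO values lay within the range of control. The means were 24.6 ± 1.57 and 23.8 ± 0.391 FPKM (SD, n = 3), and the log2 fold change was -0.04 (95% interval -0.16 to 0.08, limma adjusted p = 0.760). Without control replicate 3 it was -0.0035, and without control replicate 2 it was -0.092.

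Smad3 had 3, 1 and 1 reads in replicates 1 to 3 of control and 0, 1 and 1 reads in replicates 1 to 3 of PIO. None of the libraries exceeded the floor of 3 reads, which for this gene of 5714 bases is 0.0348 to 0.0374 FPKM. Over pooled reads Smad2 was 1240 times Smad3 per length in control (exact 95% counting interval 530 to 3810) and 2890 times with PIO (800 to 23900). These intervals overlap. No difference in Smad3 between the groups was detectable at this depth, and without the filter on low values the log2 fold change was -0.032 (limma adjusted p = 0.732).

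Smad4 (GeneID 50554) encodes the common partner of the receptor-regulated Smads. Its level was 21.8, 22.8 and 22.4 FPKM in replicates 1 to 3 of control and 22.6, 21.2 and 20.9 FPKM in replicates 1 to 3 of PIO. PIO replicate 1 lay within the control values. The log2 fold change was -0.05 (95% interval -0.16 to 0.06, limma adjusted p = 0.671), and without PIO replicate 1 or PIO replicate 3 it was -0.083 or -0.027. Smad4 ran at 0.86 to 0.995 times the level of Smad2 in each of the 6 libraries. The log2 ratio of Smad4 to the sum of Smad2 and Smad3 was -0.14 ± 0.12 in control and -0.15 ± 0.08 with PIO (SD, n = 3, exact permutation p = 0.8, adjusted p = 1.0 over 4 ratios).

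Smad7 (GeneID 81516) encodes the inhibitory Smad, which the pathway itself induces. It stood at 0.940, 1.14 and 1.09 FPKM in replicates 1 to 3 of control and 1.08, 1.05 and 0.990 FPKM in replicates 1 to 3 of PIO. The groups overlapped fully, and 60 to 69 reads lay behind each value. The log2 fold change was -0.011 (95% interval -0.25 to 0.23, limma adjusted p = 0.975), and its sign turned without control replicate 2, control replicate 3 or PIO replicate 3. The interval leaves room for changes of about the size seen in Tgfb1 and Tgfbr1. Smad2 was 20.1 to 26.6 times as abundant as Smad7 per length. The log2 ratio of Smad7 to the sum of Smad2 and Smad3 was -4.55 ± 0.20 in control and -4.52 ± 0.09 with PIO (SD, n = 3, exact permutation p = 1.0).

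By mean level over the 6 libraries the order was Tgfb1, Smad2, Smad4, Tgfbr1, Tgfbr2, Smad7, Ltbp1, Tgfb2, Tgfb3 and Smad3. Neighbours in that order were separate in 6 of 6 libraries, except Tgfbr1 and Tgfbr2, Tgfb2 and Tgfb3, and Tgfb3 and Smad3, whose ranges overlapped. Smad2 and Smad4 were separate by a narrow margin, 22.9 to 25.9 against 20.9 to 22.8 FPKM. Of the 10 genes, 6 were abundant enough to test. None was called, 2 had an unadjusted limma p under 0.05 (Tgfb1 and Tgfbr1), and 12.5% of all genes tested did. Of the 6, 1 had PIO all above control and 1 all below, against 18.5% of all genes without overlap in either direction. The median log2 fold change of the 6 was -0.027, with 2 higher and 4 lower, beside 0.0094 over all genes tested, of which 54.0% were higher.

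**Figure D3:**
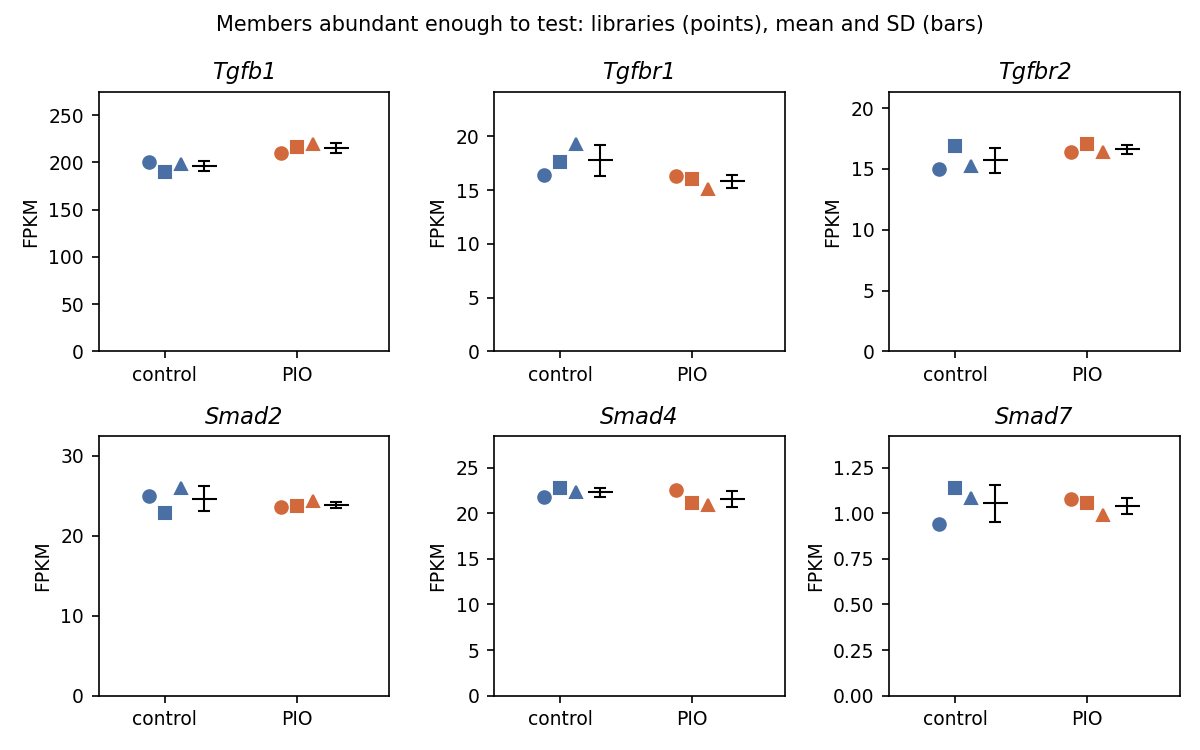
FPKM of the 6 tested genes, each on its own axis from 0, with control in blue and PIO in orange, points for replicates 1 to 3 and bars for the mean and SD. Only Tgfb1 (PIO above) and Tgfbr1 (PIO below) show no overlap between the groups.

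The rest of the pathway was read from 8 lists covering 104 further genes, all in the table, of which 55 were abundant enough to test. None was called, 28 were higher and 27 lower, and the median log2 fold change was 0.00057. PIO values lay all above control for 10 and all below for 7, which is 30.9% of the 55, beside 18.5% of all genes tested. An unadjusted limma p under 0.05 was seen for 9, or 16.4%, beside 12.5% of all genes tested. These shares are descriptions. For 1 of the 8 lists the counts are not given. From each list the tested genes with the smallest p, at most 2, are given, as differences that did not pass. The list medians are small, and where leaving out 1 library moved one by over 1.5 times or turned its sign, the values are given beside it.

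Ligand storage and activation had 6 of 13 genes tested, with 3 higher, 3 lower and their median log2 fold change at 0.025. That median was 0.0064 without PIO replicate 3, 0.0088 without control replicate 1, 0.015 without PIO replicate 1, 0.049 without control replicate 3 and 0.062 without PIO replicate 2. It was negative with no filter (-0.025), a minimum mean of 1 FPKM (-0.030) and TPM scaling (-0.0028). Furin, the protease that cuts the TGF beta precursor, stood at 6.47, 7.18 and 7.57 FPKM in control and 9.07, 8.09 and 8.41 FPKM with PIO. For Furin, each PIO value exceeded each control value (log2 fold change 0.25, limma adjusted p = 0.308). Itgav encodes the integrin αV chain, which takes part in releasing the ligand from its propeptide. It stood at 13.4, 15.5 and 14.7 FPKM in control and 12.97, 12.1 and 12.02 FPKM with PIO, with no overlap (-0.22, limma adjusted p = 0.304). Its partners that are best known for TGF beta release were scarcely read, with at most 1 read per library for Itgb6 and Itgb8, while the general partner Itgb1 stood at 115.0 ± 0.570 and 111.4 ± 1.19 FPKM (SD, n = 3).

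Of 14 other receptors and co-receptors of the family 3 were tested, with 1 higher, 2 lower and a median of -0.082. Without control replicates 1 or 2 the median was -0.047 or -0.046, and without PIO replicates 1 or 2 it was -0.13 or -0.038. With no filter it was 0.0080. Tgfbrap1, a receptor-associated protein gene, stood at 5.61 ± 0.229 and 6.14 ± 0.124 FPKM (SD, n = 3; 0.12, limma adjusted p = 0.449). Bmpr2, the type II receptor gene for bone morphogenetic proteins (BMP), stood at 4.24 ± 0.285 and 3.98 ± 0.255 FPKM (-0.08, adjusted p = 0.682). The co-receptor gene Tgfbr3 had 0 to 6 reads per library. Of the other Smads only Smad5, of the BMP branch, was tested, at 10.1 ± 0.582 and 9.86 ± 0.236 FPKM (-0.03, adjusted p = 0.845). The sign of its log2 fold change turned without control replicate 3 (0.012) and with a correction for gene length (0.014). It was -0.065 without control replicate 1, -0.047 without PIO replicate 1 and -0.014 without PIO replicate 3. Smad1, its close relative, was listed at 0 in all 6 libraries.

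Regulators of receptors and Smads had 13 of 17 genes tested, 7 higher and 6 lower, with a median of 0.00057 that had no stable sign. With 1 library left out it ranged from -0.0135 (without PIO replicate 3) to 0.029 (without PIO replicate 2), and it was positive without that last library alone. Skil encodes SnoN, a Smad corepressor. It stood at 1.57, 1.84 and 1.55 FPKM in control and 2.54, 2.03 and 1.85 FPKM with PIO (0.29, limma adjusted p = 0.387), with PIO above control throughout although control replicate 2 and PIO replicate 3 nearly met. Tgif1, another Smad corepressor gene, stood at 8.92, 9.29 and 9.16 FPKM and then at 9.84, 11.2 and 10.4 FPKM (0.19, adjusted p = 0.339), also with no overlap. Smad partners in the nucleus had 7 of 8 tested, 3 higher and 4 lower, with a median of -0.074. This was -0.12 without control replicate 1, -0.046 without control replicate 3 and -0.039 without PIO replicate 3, and -0.036 with the length correction and -0.037 with no filter. Rbl1, which encodes the p107 pocket protein that acts with Smads on Myc, stood at 20.7 ± 1.57 and 17.0 ± 2.29 FPKM with overlap (SD, n = 3; -0.29, adjusted p = 0.340). Runx3 stood at 40.7, 43.2 and 42.2 FPKM and then at 44.1, 46.1 and 45.9 FPKM without overlap (0.11, adjusted p = 0.358).

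Map3k7 encodes TAK1, a kinase through which TGF beta receptors signal without Smads. It had 148, 184 and 105 reads in replicates 1 to 3 of control and 22, 12 and 18 with PIO. The means were 1.254 ± 0.373 and 0.154 ± 0.0461 FPKM (SD, n = 3), a difference of -87.7%. On the log2(FPKM + 0.5) scale, where the pseudocount makes the change of so low a gene smaller, the difference was -1.40 and did not pass (limma adjusted p = 0.0697). It was the only gene among the members and list genes named here that passed in any other setting, with limma-voom on the recovered reads (-2.99, adjusted p = 0.0136), with a pseudocount of 0.1 (-2.39, limma adjusted p = 0.0404) and without control replicate 3 (-1.56, limma adjusted p = 0.0407). Pard6a, a polarity gene that the type II receptor phosphorylates, stood at 3.86 ± 0.224 and 4.95 ± 0.757 FPKM without overlap (SD, n = 3; 0.31, adjusted p = 0.340).

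Genes known to respond to TGF beta had 12 of 23 tested, 7 higher and 5 lower, with a median of 0.044 (0.021 without PIO replicate 3), and 11 were too low to test, among them the matrix genes Fn1, Col1a1 and Col1a2. Fn1, the fibronectin gene, had 56, 29 and 26 reads in control and 18, 10 and 19 with PIO, with no overlap. Control replicate 1 was the highest, and among all genes tested 8.09% had PIO values all below control. Fn1 was in neither the main test nor the rule for naming genes. Without the filter its log2 fold change was -0.33 (limma adjusted p = 0.465). Myc, which TGF beta represses in many cells, stood at 71.2, 76.2 and 76.5 FPKM in control and 68.1, 70.7 and 66.0 FPKM with PIO, with no overlap (-0.13, limma adjusted p = 0.340). Skil, given above, was the other gene of smallest p. Smad7, described above, belongs to the same list, and its groups overlapped.

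Activin and BMP ligands and their binders were mostly unread, with 4 of 17 tested and 6 listed at 0 in all libraries. The 4 had a median of 0.036, with 3 higher and 1 lower. Its sign turned without control replicate 2 (-0.071). It was 0.072 without control replicate 1, 0.017 without control replicate 3 and 0.0084 without PIO replicate 3. A minimum mean of 1 FPKM leaves out Bmp7 and Chrd, and the median of the remaining Gdf11 and Gdf15 was -0.18. Gdf15 encodes a stress-induced ligand of the family. It stood at 2.25, 2.72 and 6.97 FPKM in control and 2.11, 2.53 and 2.72 FPKM with PIO, so control replicate 3 alone was high (-0.46, limma adjusted p = 0.573, and -0.018 without it). Gdf11 stood at 5.63 ± 0.994 and 6.05 ± 0.117 FPKM (SD, n = 3; 0.11, adjusted p = 0.699), and its sign turned without control replicate 3 (-0.013).

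**Figure D4:**
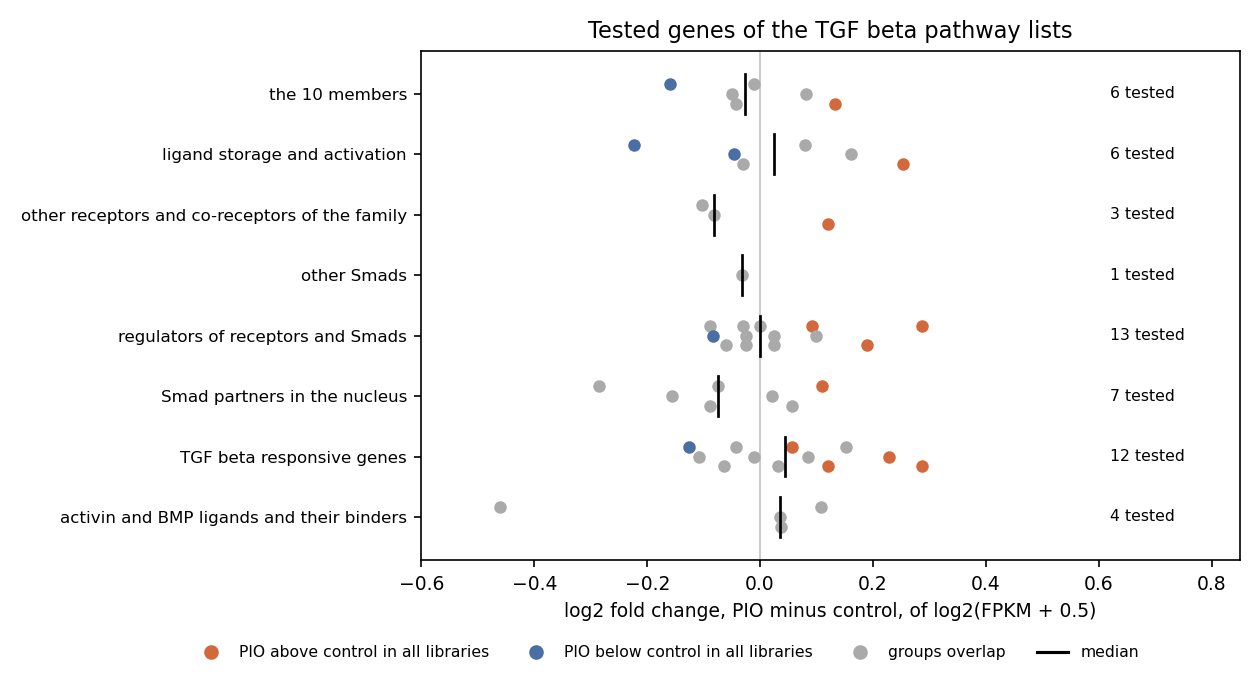
Log2 fold change (PIO minus control, on the log2(FPKM + 0.5) scale) of each tested gene in the 10-gene set and 7 of the 8 pathway lists, coloured by whether all PIO values lay above or below control, with the median as a black line. List medians lie between -0.082 and 0.044, and the point at -0.46 is Gdf15.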

How the data were processed

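Whole-transcriptome expression was measured in 3 control and 3 PIO libraries, grouped by their titles. The authors deposited 1 FPKM value for each gene in each library. The submitters' processing notes list HISAT2 2.2.1.0, HTSeq, Cufflinks, DESeq and BWA 0.7.5a, with Trimmomatic 0.36, SAMtools 1.3.1 and FastQC 0.11.5, and a human build, GRCh38, although the genes are those of the rat. The role of each tool is not stated there. Per the labels' protocols the library kit was stranded.

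Because each deposited FPKM is a whole number of steps of 1 read, reads (to within 0.001) and gene lengths could be recovered for 15428 genes, 99.99% of those above 0, and summed to 99.50% to 99.52% of the library totals. The 27 symbols stored as dates were restored through their GeneID. Ccn2 was read from the row of its older symbol Ctgf.

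Testing covered genes averaging 0.5 FPKM or more and used limma 3.58.1 (R 4.3.3) on log2(FPKM + 0.5), with no term but group, a variance trend, two-sided tests and Benjamini-Hochberg adjustment over all 10410 genes at 0.05. The pseudocount makes fold changes of low genes too small. Ratios were tested by exact permutation over libraries (scipy 1.17.1), where p cannot go below 0.1. The ratio of Smad2 to Smad3 was given no test, because Smad3 was listed at 0 in 1 library. The named genes were the 10 members, from each list the genes past the threshold or else the 2 with the smallest p, and for likeness the 3 genes best correlated with the highest ligand, receptor and Smad gene. The members and lists were chosen with earlier results of these data known. The code was tested on simulated data. Some results for pathway genes are not reported here. Figures were drawn with Python 3.11.15 and matplotlib 3.10.9.

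Alternatives were pseudocounts of 0.1 and 1, no filter, a minimum mean of 1 FPKM, median-of-ratios and TPM scaling, no variance trend, the replicate number as a block, limma-voom on recovered reads and each library left out. A correction for gene length was added after the data were seen.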

Additional observations from a re-analysis of the deposited data

How the results depend on the processing

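Over 16 alternatives for each of the 6 tested genes, none passed, and 93 values kept their sign while 3 did not. The exceptions were Smad7 without control replicate 2 (0.027), control replicate 3 (0.0041) and PIO replicate 3 (0.012). With no filter, a minimum mean of 1 FPKM, no variance trend or the replicate block, a gene's log2 fold change is the same by construction. The signs could not turn there, and only the p-values could differ. Tgfb1 ranged from 0.10 (gene length correction) to 0.15 (limma adjusted p from 0.195 to 0.68), and Tgfbr1 from -0.22 to -0.10 (limma adjusted p from 0.307 to 0.7). Of all genes, 1 was called without a filter, 2 without a variance trend, 7 by limma-voom, and 3 to 4 with 1 library left out, against 4 in the main test. The cause was not tested. The difference in the Tgfb1 share was 0.043 percentage points with a pseudocount of 0.5 against -0.0015 without, where the added constant raises the share given to Tgfb2 and Tgfb3, and -0.0055 to 0.0039 with 1 library left out. Leaving out 1 library gave -0.31 to -0.17 for the log2 ratio of Tgfbr1 to Tgfbr2, -0.065 to 0.14 for Smad7 and -0.051 to 0.059 for Smad4, each to the sum of Smad2 and Smad3, so the last pair has no stable sign. With a replicate dropped, its group has 2 libraries.

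With the replicate number as a block, 3 genes were called against 4. The ratio differences (-0.25 for the receptors) equal those of the main comparison by arithmetic, because each group has the same replicate numbers, so they are no check. Same-numbered libraries deviated with correlations of -0.0682, 0.0277 and 0.0776 across genes, and control replicate 1 correlated best with PIO replicate 2 (0.0822). These values show no clear pairing by number, and whether same-numbered libraries share a batch or culture was not tested. Of the list medians under the alternatives, 109 stayed within the spread between libraries and 19 did not. With no variance trend or the replicate block a list median is the same by construction, so part of the 109 could not have moved. With no filter or a minimum mean of 1 FPKM, a median can cover a different set of genes. Depth limits Tgfb2, Tgfb3, Smad3 and Ltbp1 most.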

Other observations

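The genes whose pattern over the 6 libraries was most like that of Tgfb1 were Glrx2, a mitochondrial glutaredoxin gene (Pearson r = 0.996), Rassf7 (0.986) and Atp6v0b, a proton pump subunit gene (0.986). For Tgfbr1, the higher of the receptor genes by mean, they were the repair gene Ercc6 (0.995), Carmil1 (0.988) and Phf12 (0.987). For Smad2 they were Fancb (0.983), Cystm1 (0.970) and Syngr1 (0.960). Each r is on the log2(FPKM + 0.5) scale over 6 libraries and is the highest found among 7389 genes averaging 5 FPKM or more. The points share their libraries, depth and group, so the values are a description.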
